A study of Mus musculus with 4 samples.

Results

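The control library holds the mRNA of CD11b+Ly6g+ cells sorted from the lungs of pre-metastatic niche (PMN) model mice that received no therapeutic peptide. It was chosen by its group label and is 1 of the 4 libraries of the study. The other libraries come from mice given a peptide and are not used here. The animals were male C57BL/6 mice aged 6 to 8 weeks. On each of 10 days every mouse was injected intraperitoneally with 300 μL of melanoma-conditioned medium (MCM), the culture medium of B16F10 mouse melanoma cells. On day 7 they also received 100000 B16F10 cells through the tail vein, and the lungs were collected on day 10. Lungs of 10 to 12 mice were digested with collagenase and pooled, red blood cells were lysed, and the cells carrying both CD11b and Ly6g were taken by fluorescence-activated cell sorting. Because all animals went into 1 library, the spread between mice could not be measured. No healthy lung stands beside it, so the values below describe the level of each gene in this pool and not a change caused by the model.

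CD11b+Ly6g+ cells are neutrophils and their precursors. In tumor-bearing hosts the same surface markers define granulocytic myeloid-derived suppressor cells (MDSCs), which gather in a future metastatic organ before tumor cells settle there. Tumor-derived factors raise their production in the bone marrow, chemokine receptors guide them into the tissue, and once there they release S100 proteins, cytokines, proteases and reactive oxygen species and restrain T cells. Neutrophils make their granule proteins in a fixed order during maturation, so primary granule genes mark early precursors, secondary and tertiary granule genes mark later ones, and mature cells carry mainly the finished protein.

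The library contained 17132880 counts on 54532 annotated genes, and 22352 genes had at least 1 count. Levels of different genes are compared as TPM, here the counts per kilobase of the deposited gene length scaled to a sum of 1000000 over all genes, while CPM are counts scaled to a total of 1000000 without regard to length. A gene was taken as detected with at least 10 counts. Of the 22046 protein-coding genes, 12682 were detected, or 57.5%, and 1214, or 5.51%, reached 100 TPM. The median was 1.32 TPM over all protein-coding genes and 9.59 TPM over the detected ones. The 95% Wilson interval of a gene reached from 45.7% below to 84.1% above its value at 10 counts, from 17.8% below to 21.6% above at 100 counts, and from 1.94% below to 1.98% above at 10000 counts. For a gene without counts the floor was set at 3 counts, or 0.175 CPM, which lies below the upper Wilson bound of 0.224 CPM. All intervals and this floor cover counting error only.

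Both sorting markers and the neutrophil genes S100a8 and S100a9 were present. Ly6g (ENSMUSG00000022582, GRCm38 chromosome 15 from 75155240 to 75159126), the granulocyte surface antigen of the sort, had 1234 counts, or 72.0 CPM (95% Wilson interval 68.1 to 76.2) and 209 TPM. The CD11b gene, Itgam (ENSMUSG00000030786), on chromosome 7 between 128062640 and 128118491, had 6430 counts, or 375 CPM (366 to 385) and 204 TPM. Per length the genes stood at a ratio of 1.02 (exact interval 0.962 to 1.09), so their levels did not differ beyond counting error. Itgam is the less certain value, because Gm49368, an annotated gene on the same strand with 61 counts, covers 3450 of its 5024 exon bases, and 64.3% of its 100-base windows occur in the transcripts of another gene. S100a9 and S100a8, which encode the subunits of calprotectin, had the highest and the next highest TPM of all genes.

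S100a9 (ENSMUSG00000056071, chromosome 3 from 90692632 to 90695721) led the library with 177455 counts, 10358 CPM and 54113 TPM (interval 53863 to 54364). S100a8 (ENSMUSG00000056054, chromosome 3 from 90668978 to 90670035), its partner in the calprotectin complex, followed with 94860 counts and 21757 TPM. S100a9 thus stood 2.49 times above S100a8 per length (2.47 to 2.51). A cytokine and a chemokine were also among the 6 protein-coding genes with the highest TPM. Il1b (ENSMUSG00000027398, chromosome 2 from 129364570 to 129371139), the inflammatory cytokine interleukin-1β, had 156498 counts and 13063 TPM. Cxcl2 (ENSMUSG00000058427, chromosome 5 from 90903871 to 90905938), a chemokine that attracts neutrophils through CXCR2, had 152311 counts and 11724 TPM.

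The promoters of these 4 genes are shown because they are the most abundant genes of the S100 family, the interleukins and the CXC chemokines in this library. Each line gives 300 bases of RefSeq on GRCm38.p6, 5′ to 3′ on the strand of the gene, from 250 bases before its start to 50 bases from the start onward. Capitals mark matches to 4 motifs that were searched on both strands.
S100a9 (chr3:90695672-90695971, minus strand): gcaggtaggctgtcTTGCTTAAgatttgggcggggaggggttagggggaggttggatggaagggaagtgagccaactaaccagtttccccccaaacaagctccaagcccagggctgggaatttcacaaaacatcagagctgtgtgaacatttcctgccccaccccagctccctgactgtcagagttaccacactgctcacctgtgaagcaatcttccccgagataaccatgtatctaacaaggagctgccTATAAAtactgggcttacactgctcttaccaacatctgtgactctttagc
S100a8 (chr3:90668821-90669120, plus strand): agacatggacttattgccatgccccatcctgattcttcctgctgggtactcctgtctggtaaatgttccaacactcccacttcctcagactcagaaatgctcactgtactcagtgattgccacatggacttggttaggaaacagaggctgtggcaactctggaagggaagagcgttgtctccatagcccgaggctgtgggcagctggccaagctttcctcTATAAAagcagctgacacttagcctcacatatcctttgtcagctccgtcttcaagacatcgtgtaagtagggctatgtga
Il1b (chr2:129371090-129371389, minus strand): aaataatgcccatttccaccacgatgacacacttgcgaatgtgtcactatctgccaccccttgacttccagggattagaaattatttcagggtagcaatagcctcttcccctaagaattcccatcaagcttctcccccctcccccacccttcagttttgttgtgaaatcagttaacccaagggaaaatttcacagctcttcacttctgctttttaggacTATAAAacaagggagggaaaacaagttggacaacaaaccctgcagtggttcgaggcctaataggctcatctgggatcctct
Cxcl2 (chr5:90903649-90903948, plus strand): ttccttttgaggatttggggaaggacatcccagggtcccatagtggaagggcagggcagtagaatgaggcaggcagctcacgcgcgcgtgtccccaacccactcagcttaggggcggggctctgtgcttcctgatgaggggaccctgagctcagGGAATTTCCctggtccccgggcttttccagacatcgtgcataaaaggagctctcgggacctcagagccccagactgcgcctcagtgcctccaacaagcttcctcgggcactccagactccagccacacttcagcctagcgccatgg
The searched letters were TGANTCA for AP-1, TTGCNNAA for C/EBP, GGANTTNCC for NF-kB and TATAAA for the TATA box. S100a8 held TATAAA from 30 to 25 bases upstream of its start and Il1b from 31 to 26 bases upstream. In S100a9 the same letters begin at the start itself, and a C/EBP match, TTGCTTAA, lies 236 to 229 bases upstream. Cxcl2 held the NF-kB letters GGAATTTCC from 96 to 88 bases upstream. None of these matches overlaps another, and none of the 4 windows held the AP-1 letters. The RefSeq start lies 93 bases from the deposited 5′ end of S100a8 and 28 bases from that of Cxcl2, so the window is placed by 1 of several possible starts. Over the promoters of 16491 protein-coding genes, TATAAA was found in 12.8%, the C/EBP letters in 10.0%, the AP-1 letters in 7.00% and the NF-kB letters in 4.00%. Over the 9975 of these genes that were detected, the shares were 7.33%, 8.58%, 4.96% and 4.11% in the same order. Among the 100 genes with the highest TPM, 25 held TATAAA, 14 the C/EBP letters, 12 the NF-kB letters and 6 the AP-1 letters, a share that lies below that of all promoters and above that of the detected genes. These are matches of letters and say nothing about binding.

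The 30 genes with the highest TPM held myeloid genes beside broadly expressed ones. Besides S100a9, S100a8, Il1b and Cxcl2, they included the neutrophil genes G0s2, a regulator of lipid breakdown, at 9221 TPM, and Retnlg, a resistin-like secreted protein, at 8477 TPM. Granule and lysosomal products among them were Lyz2, the macrophage and neutrophil lysozyme, at 12775 TPM, Ngp, neutrophilic granule protein, at 6434 TPM, and Chil3, a chitinase-like protein, at 4478 TPM. Several of the 30 are not particular to neutrophils. Fth1, the iron-storage ferritin heavy chain, reached 21405 TPM, a value that rests on a deposited length of 866 bases, against 3469 in its merged annotated exons. Tmsb4x, the actin-binding thymosin β4, reached 9798 TPM, B2m, the light chain of MHC class I, 7422 TPM and the actin gene Actb 4960 TPM. Cd74, the invariant chain of MHC class II, stood at 8895 TPM, the class II genes H2-Eb1 and H2-Ab1 at 5120 and 3858 TPM, and Apoe, an apolipoprotein that macrophages make, at 4589 TPM. The 30 also hold signal-responsive regulators. Among these are the transcription factor genes Junb and Cebpb, at 8637 and 6149 TPM, Nfkbia, which encodes the NF-kB inhibitor IκBα, at 5712 TPM, and Dusp1, a phosphatase that switches off MAP kinases, at 5450 TPM. Gm23935, a gene of only 57 bases annotated as a microRNA, entered the list at 8339 TPM with 2986 counts, a value that rests on its short length. Along the order of the 30, 7 of 29 neighbouring pairs had overlapping intervals.

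**Figure D1:**
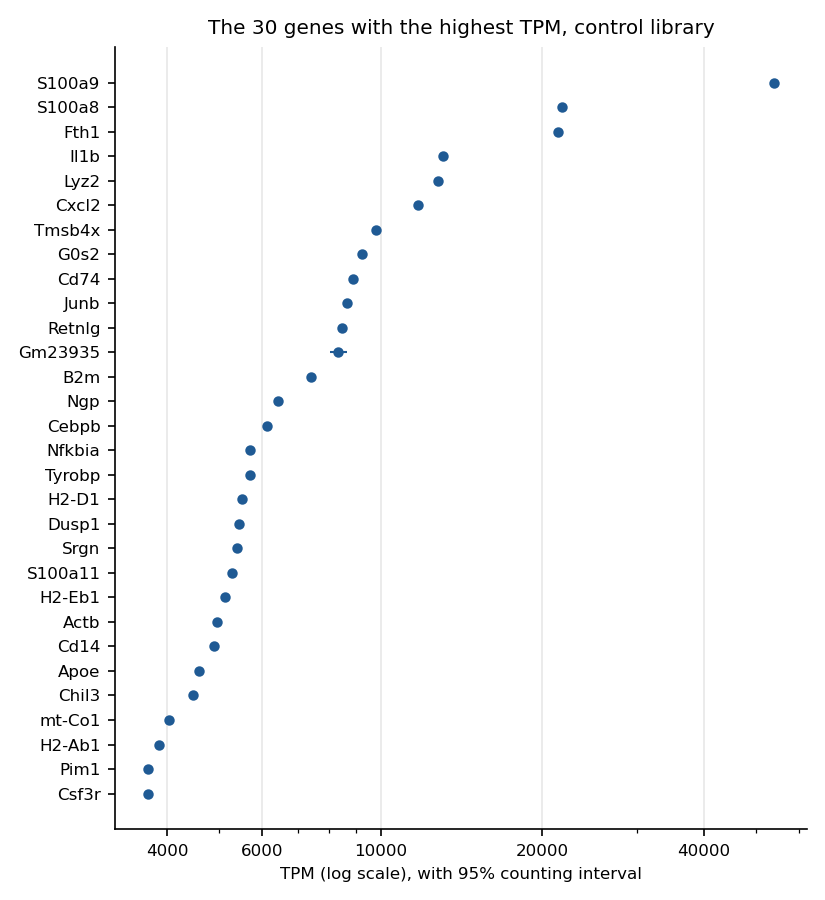
TPM on a logarithmic axis of the 30 genes with the highest TPM in the control library, with 95% counting intervals, which are mostly narrower than the points. S100a9 stands apart at 54113 TPM, S100a8 and Fth1 lie near 21757 and 21405 TPM, and the last of the 30, Csf3r, at 3689 TPM.

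Ordered by counts rather than by TPM, 19 of the 30 leading genes were the same. Csf3r, the receptor for the granulocyte growth factor G-CSF, stood in both orders and had 83644 counts. Among the genes that led by counts alone were Lilr4b, an inhibitory leukocyte receptor, with 76250. Mcl1, a survival gene on which neutrophils depend, had 73494 counts, Hdc, the enzyme that makes histamine, 61509, and Thbs1, the matrix protein thrombospondin-1, 60894. Zfp36, which speeds the decay of cytokine mRNAs, had 58835 counts. The library was not dominated by a few genes. The 10 most abundant took 6.97% of all counts, the 50 most abundant 19.4%, and 440 genes together held 50%.

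The pool was described with lists of marker genes, which were written with earlier results of these data known. The neutrophil list holds Ly6g and Itgam, the genes of the sorting markers, so it is not independent evidence of identity. All 18 neutrophil markers were detected and all 18 reached 100 TPM, from Mrgpra2b at 123 TPM to S100a9. Mrgpra2b is uncertain, since 68.2% of its windows are shared with another gene. Together they took 3.82% of all counts (95% Wilson interval 3.81 to 3.83), and 2.78% without S100a9. They included Cxcr2 at 740 TPM, Trem1, an amplifier of inflammatory signals, at 2139 TPM, and Clec4d, a C-type lectin, at 2972 TPM. The 11 markers of immature neutrophils took 0.844%, but almost all of it lay on the 4 genes of the later granules, Ngp, Chil3, Camp and Ltf. Of the remaining markers, Ctsg had 12 counts, Ms4a3 16, Elane 35, Mpo 38, Prtn3 90 and Fcnb 156. Cebpe was the highest of them with 467 counts and 59.9 TPM.

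The marker lists of other cell types took lower shares, and each share depends on which genes its list holds and how many. Cd74, Apoe, H2-Ab1 and H2-Eb1, with 78790, 61643, 39680 and 38084 counts, are in no marker list, so their counts enter none of these shares. The 11 markers of interstitial macrophages took 0.307% of counts (0.304 to 0.309) and all 11 were detected. Leading them were the complement genes C1qa with 12261 counts and 1877 TPM, C1qb with 1704 TPM and C1qc with 867 TPM. Per length, C1qa stood 9.0 times above Ly6g (8.49 to 9.55) and 28.8 times below S100a9. Alveolar macrophage markers took 0.118%, led in counts by Mrc1, the mannose receptor, with 8819, while Ear2, a ribonuclease, had the highest TPM at 926. Monocyte markers took 0.0998%, and 5 of the 8 reached 100 TPM. They were led in counts by F13a1, a coagulation factor subunit, with 5019 and 119 TPM, and in TPM by Plac8 at 161, while Ly6c2, the Ly6C antigen of classical monocytes, had 101 TPM and the chemokine receptor gene Ccr2 55.5 TPM. The airway secretory gene Scgb1a1 had 9541 counts and 3191 TPM. It held 90% of the counts of the alveolar type 1 and airway list, whose share fell from 0.0619% to 0.00619% without it. Markers of B and plasma cells took 0.0445%, led by Ighm, the heavy chain of IgM, with 4309 counts. Fibroblast and smooth muscle markers took 0.0323%, alveolar type 2 markers 0.0179%, dendritic cell markers 0.0171%, markers of dividing cells 0.0137%, platelets 0.0113%, endothelium 0.0101%, T cells 0.00531% and NK cells 0.00327%. The marker with most counts was Col3a1, a collagen, with 1500 in the fibroblast list, Napsa, a protease that processes surfactant, with 1869 in the alveolar type 2 list, Cd209a, a lectin, with 1388 in the dendritic cell list and Mki67, a marker of cycling cells, with 1395. It was Pf4, with 1733 counts, in the platelet list, Vwf, the von Willebrand factor, with 612 in the endothelial list, Cd4 with 398 in the T cell list and Gzma, a granzyme, with 247 in the NK cell list. Red blood cell markers stood at 0.00224%, and those of eosinophils, basophils and mast cells at 0.00104%, where Epx, the eosinophil peroxidase, had 2 counts.

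Melanoma markers were close to absent in this pool. It had been sorted for CD11b and Ly6g, so these counts do not describe the injected B16F10 cells in the lung. Pmel had 20 counts and Sox10 2 counts, while Tyr, Tyrp1, Dct and Mlana had 0 counts, with a floor of 0.175 CPM and an upper Wilson bound of 0.224 CPM for each. Mesothelial markers took 0.000304%. Among sex-linked genes, Ddx3y had 3513 counts and Eif2s3y 1768 counts, both on the Y chromosome, and Xist, the RNA of the inactive X chromosome, had 0. A share of counts is not a share of cells. In a bulk library, fewer cells of a type and less RNA per cell cannot be told apart, and the part that macrophage, airway or other cells have in the level of any gene below was not tested.

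**Figure D2:**
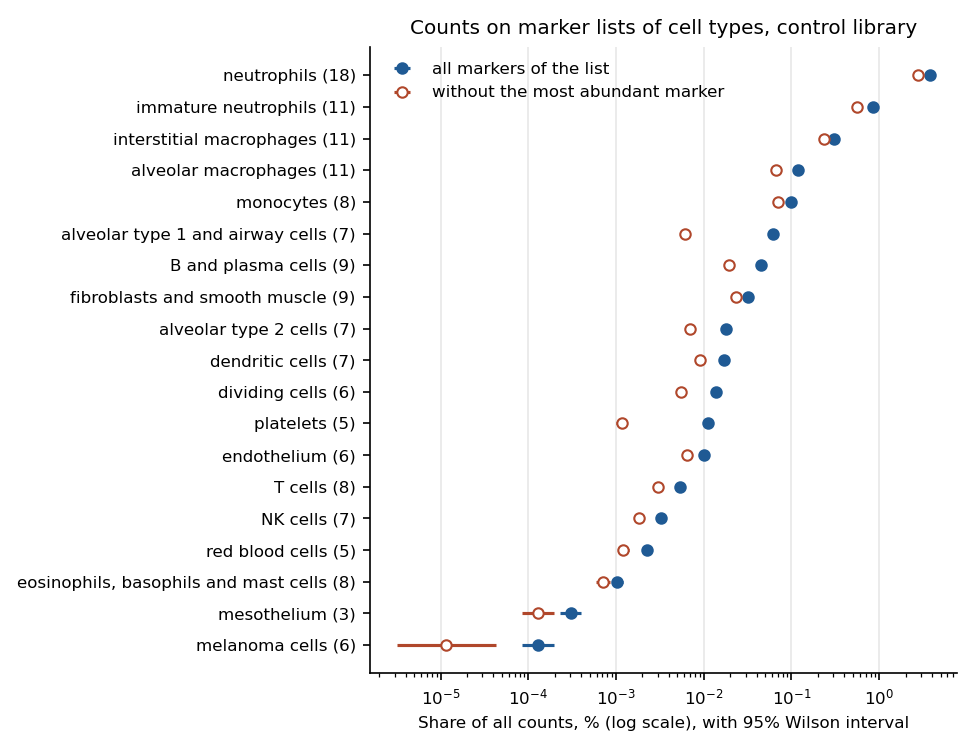
Share of all counts, in percent on a logarithmic axis with 95% Wilson intervals, on each list of cell type markers in the control library, with all markers (filled) and without the most abundant marker of the list (open). Neutrophil markers lie highest at 3.82%, interstitial macrophage markers at 0.307%, and melanoma markers lowest at 0.000128%.

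Secreted factors, receptors and regulators were then described in 21 lists with 484 genes. The background is 57.5% detected and 5.51% at 100 TPM or more among all protein-coding genes, and the lists were written from genes known in myeloid cells. Of the CXC chemokines, which attract neutrophils and lymphocytes, 13 of 15 were detected and 3 reached 100 TPM. Cxcl2 alone held 93.0% of the counts of this list. It stood 32.9 times above Cxcl1 (31.9 to 33.9), a further CXCR2 ligand, which had 4203 counts and 357 TPM. Pf4, platelet factor 4, had 383 TPM, and it is also the gene that holds 89.7% of the counts on the platelet markers. Lower came Cxcl3, again a CXCR2 ligand, at 93.5 TPM, Cxcl16 at 92.8 TPM and the interferon-induced Cxcl10 at 59.7 TPM. Cxcl5, a CXCR2 ligand typical of epithelium, had 0 counts and Cxcl11 had 3.

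CC chemokines mainly attract monocytes, lymphocytes and eosinophils. Their list also holds Xcl1 and Cx3cl1, of the XC and CX3C classes, with 5 and 114 counts. Of its 20 genes 15 were detected and 9 reached 100 TPM, with a list median of 58.7 TPM. Ccl6 was highest with 27448 counts and 2434 TPM and held 53.9% of the list's counts. The macrophage inflammatory protein genes Ccl3 and Ccl4 followed with 1998 and 994 TPM, then Ccl8 with 486, Ccl9 with 210 and Ccl7 with 147 TPM. Ccl1, Ccl19, Ccl20 and Ccl28 had 0 counts.

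Of the 38 interleukins and interferons 22 were detected, a share of 57.9% that is close to the background of 57.5%, and 5 reached 100 TPM. Il1b held 78.2% of the list's counts. Its natural antagonist Il1rn, which blocks the interleukin-1 receptor, had 13638 counts and 392 TPM, so Il1b stood 33.3 times above it (32.7 to 33.9). The related Il1f9, interleukin-36γ, had 669 TPM and Il1a 203 TPM. Osm, oncostatin M of the interleukin-6 family, had 930 TPM and stood 9.44 times above Il6 (8.95 to 9.97), which had 98.5 TPM. The immunoregulatory Il10 had 608 counts and 73.9 TPM. Il3, Il9, Il20, Il21, Il24 and Il25 had 0 counts.

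Of 17 TNF family ligands 11 were detected. Tnf had 5141 counts and 499 TPM, Tnfsf14, also called LIGHT, 282 TPM and Ltb, lymphotoxin β, 187 TPM, and no other member reached 100 TPM. Growth and angiogenic factors were detected in 24 of 26 cases, but only 3 reached 100 TPM. These were Csf1, the macrophage growth factor, with 175 TPM, Tgfb1, transforming growth factor β1, with 143 TPM, and Vegfa, the vascular endothelial growth factor, with 3752 counts and 139 TPM. Csf3, which encodes G-CSF, had 326 counts and 36.7 TPM, far below the TPM of its receptor. Csf2, which encodes GM-CSF, had 24 counts and Prok2, the angiogenic factor Bv8, 59.

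Granule genes split by granule class. All 8 primary granule genes were detected, with a median of 3.76 TPM, and the highest were Ctsc, the protease that activates granule serine proteases, at 232 TPM and the membrane protein Cd63 at 133 TPM. The serine protease genes Prtn3 and Elane had 90 and 35 counts and Mpo, myeloperoxidase, 38. Of the 16 secondary and tertiary granule genes 14 were detected and 12 reached 100 TPM, with a median of 1402 TPM, the highest of the 21 lists. Slpi, a protease inhibitor, had 3247 TPM, Camp, the cathelicidin antimicrobial peptide, 2803 TPM and Hp, haptoglobin, 1976 TPM. Ltf, the iron-binding lactoferrin, had 35104 counts and 1620 TPM, 917 times the level of Mpo per length (668 to 1296). Mmp9, the gelatinase of tertiary granules, had 33520 counts and 1508 TPM, Lcn2, a siderophore-binding lipocalin, 1296 TPM and the collagenase Mmp8 682 TPM. Bpi and Ptx3 had 1 count each.

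Among 13 S100 genes, 8 were detected and 6 reached 100 TPM. S100a11 had 5290 TPM, with 34.0% of its windows shared with another gene, and S100a6 1271 TPM. S100a4 had only 4 counts, and this value is uncertain, since Gm42674 on the same strand, with 0 counts, covers 302 of its 584 exon bases.

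The study names several proteins of the niche matrix. Fn1, fibronectin, had 17225 counts and 235 TPM, while Mmp2, a gelatinase, had 224 counts and 10.6 TPM. Lox, which cross-links collagen, and Postn, periostin, had 59 and 89 counts, or 1.95 and 1.63 TPM. Of the 24 matrix and niche genes 22 were detected and 6 reached 100 TPM. Thbs1 led with 1596 TPM, followed by the membrane protease Adam8 with 1148 TPM. The protease inhibitor Timp2 had 188 TPM, Serpinb2, an inhibitor of plasminogen activators, 143 TPM and Spp1, osteopontin, 119 TPM. Mmp10 had 0 counts.

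MDSCs act on T cells through prostaglandins, reactive oxygen, adenosine and the removal of amino acids. Of 22 effector genes 21 were detected and 15 reached 100 TPM. Ptgs2, cyclooxygenase 2, which starts prostaglandin synthesis, had 48880 counts and 1699 TPM. The NADPH oxidase was represented by Cyba with 1306 TPM, Rac2 with 791 TPM, Ncf1 with 479 TPM, Ncf4 with 414 TPM and Cybb with 309 TPM. Entpd1, the ectoenzyme CD39 that breaks down extracellular ATP, had 560 TPM, and Nt5e, CD73, which completes the step to adenosine, 14.3 TPM. The arginase genes Arg2 and Arg1 had 3732 and 458 counts, or 416 and 32.7 TPM. Nos2, the inducible nitric oxide synthase, had 13 counts and Ido1, which degrades tryptophan, had 0.

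**Figure D3:**
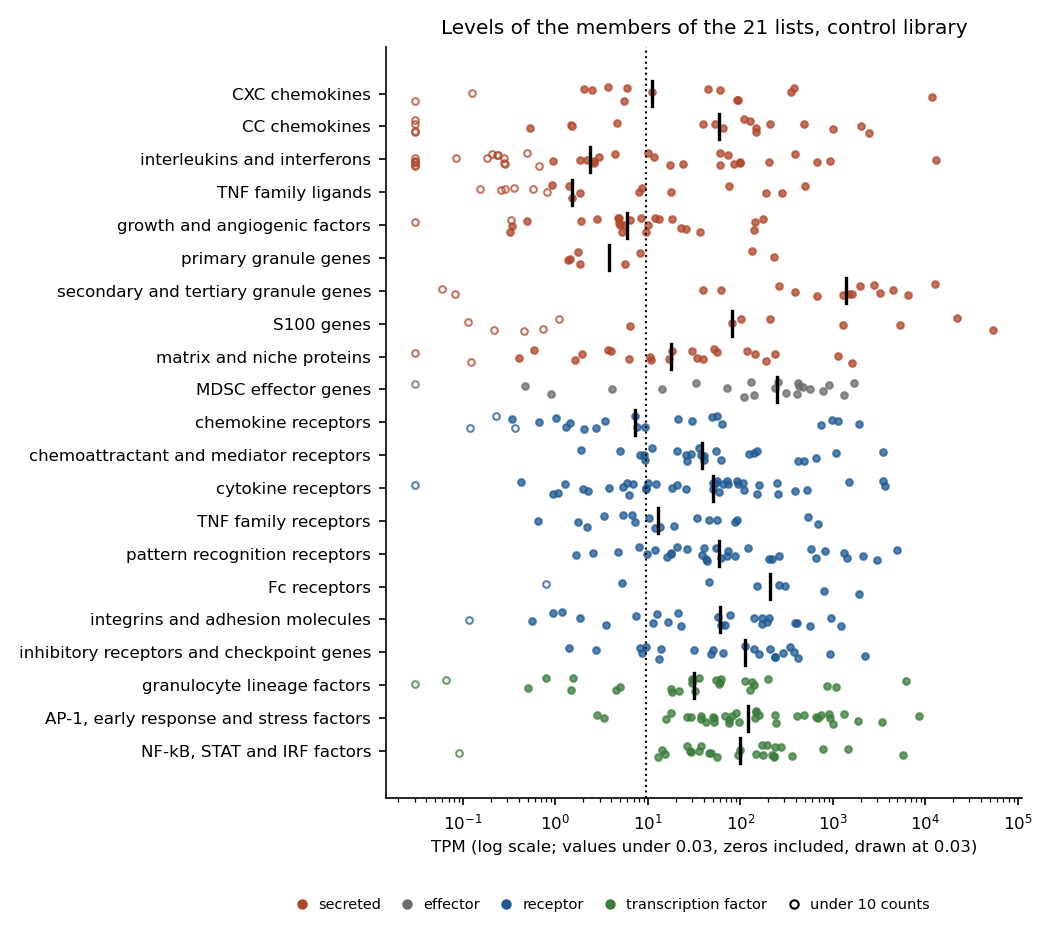
TPM on a logarithmic axis of every member of the 21 lists in the control library, 1 point per gene, coloured by role and open where the gene has under 10 counts, with black bars at the list medians and a dotted line at 9.59 TPM, the median of detected protein-coding genes. The median of 16 lists lies above that line, and the highest is that of secondary and tertiary granule genes at 1402 TPM.

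Receptors were described in 8 lists. Of 23 chemokine receptor genes 20 were detected but only 4 reached 100 TPM. Ccrl2, a non-signaling receptor that presents chemerin, had 1907 TPM and Ccr1, a receptor for Ccl3 and related chemokines, 1147 TPM. Cxcr4, which holds neutrophils in the bone marrow, had 11249 counts and 990 TPM. Cxcr2, which draws them into tissue, had 14167 counts and 740 TPM. Per length Cxcr2 stood at 0.747 of Cxcr4 (0.729 to 0.766) although its counts were higher, because its deposited length is greater. It stood 24.8 times above Cxcr1 (22.1 to 28.1). Ccr7, a receptor for lymph node homing, had 63.6 TPM, and Ackr1 had 2 counts.

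All 24 receptors for other chemoattractants and mediators were detected, and 8 reached 100 TPM. Hcar2, a receptor for hydroxybutyrate and nicotinic acid, was highest with 41738 counts and 3442 TPM. The complement receptor C5ar1 had 1090 TPM, Ptafr, which binds platelet-activating factor, 663 TPM, and the formyl peptide receptors Fpr2 and Fpr1 483 and 423 TPM. Fpr3 had 15 counts.

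Of 40 cytokine receptor genes 39 were detected and 11 reached 100 TPM. Csf3r had 3689 TPM and stood 7.05 times above Csf1r (6.93 to 7.17), the macrophage growth factor receptor, which had 16058 counts and 523 TPM. Il1r2, the decoy receptor that binds interleukin-1 without signaling, had 41480 counts and 3461 TPM. The signaling receptor Il1r1 had 91 counts and 2.28 TPM, so that the decoy stood 1520 times above it (1238 to 1888). Csf2ra, the α chain of the GM-CSF receptor, had 1483 TPM and Il10ra 388 TPM. Osmr, the receptor chain for oncostatin M, had 32 counts. All 18 TNF family receptors were detected, but only Tnfrsf1a at 696 TPM and Tnfrsf1b at 537 TPM, both receptors for TNF, reached 100 TPM.

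All 32 pattern recognition genes were detected, and 12 reached 100 TPM. Cd14, which passes lipopolysaccharide to Tlr4, had 48376 counts and 4898 TPM, while Tlr4 itself had 929 counts and 26.6 TPM. Tlr2, the receptor for bacterial lipoproteins, had 583 TPM. Of the C-type lectin genes in this list, which encode receptors for fungal and other ligands, Clec4d had 2972 TPM, Clec7a, also called dectin-1, 1427 TPM and Clec4e, also called Mincle, 813 TPM, while Clec4n had 259 TPM, Clec4a2 87.7 TPM and Clec5a 74.0 TPM. Nlrp3, the sensor of an inflammasome that processes interleukin-1β, had 33262 counts and 1305 TPM. Of 8 Fc receptor genes 7 were detected, led by the shared signaling chain Fcer1g with 1923 TPM and the IgG receptor genes Fcgr3 with 799 TPM and Fcgr4 with 302 TPM.

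Integrins and adhesion molecules were detected in 25 of 26 cases, and 10 reached 100 TPM. Itgb2, the β2 chain that pairs with CD11b, had 23654 counts and 1234 TPM. Cd44, the hyaluronan receptor, had 946 TPM, Selplg, the selectin ligand, 572 TPM and Itgal, the α chain of LFA-1, 405 TPM. Itgb8 had 8 counts. Inhibitory receptors and checkpoint genes were all detected, 23 of 23, and 12 reached 100 TPM. Lilr4b had 2232 TPM and its close relative Lilrb4a 925 TPM, with 35.2% of the windows of Lilrb4a shared with another gene. Sirpa, the receptor for the CD47 signal, had 424 TPM, Cd300lf 376 TPM, Vsir, which encodes VISTA, 341 TPM and Pirb 289 TPM. Cd274, which encodes PD-L1, had 5399 counts and 237 TPM, 25.0 times the level of the second PD-1 ligand gene Pdcd1lg2 (20.5 to 30.9). Pdcd1, which encodes PD-1, had 17 counts.

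Transcription factors were taken from the factor family column of the deposited table. Of 1469 factor genes 853 were detected, or 58.1%, close to the 57.5% of all protein-coding genes, and 53, or 3.61%, reached 100 TPM. They took 6.63% of all counts. The family that this column names bZIP, for the basic leucine zipper with which its members bind DNA in pairs, held 33.0% of the factor counts with 48 genes, 17 of them at 100 TPM or more. It provided 11 of the 20 factors with the highest TPM. C/EBP factors also have a basic leucine zipper, but the column keeps them as a family of their own, whose 4 genes held 5.55% of the factor counts.

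Many of the leading factors are immediate early genes, which are induced within minutes of a stimulus. Junb had 124848 counts and 8637 TPM and stood 9.31 times above Jun (9.17 to 9.45), which had 928 TPM. Their AP-1 partner genes Fos and Fosb had 3394 and 1320 TPM, Fosl2 had 656 TPM and Atf3, a stress-induced repressor, 1006 TPM. The early response genes Nr4a1, an orphan nuclear receptor, and Egr1, a zinc finger factor, had 1891 and 750 TPM. All 36 genes of the list of AP-1, early response and stress factors were detected and 18 reached 100 TPM. The cells had been through collagenase digestion and sorting before RNA extraction, and whether this handling affected these levels was not tested. Jund had 916 TPM, but 43.5% of its windows are shared with other genes.

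Among lineage factors, 26 of 28 were detected and 8 reached 100 TPM. Cebpb, which drives emergency granulopoiesis, had 58103 counts and 6149 TPM. Cebpe, which is needed for secondary granules, had 467 counts and 59.9 TPM, so Cebpb stood 103 times above it (93.7 to 113). Spi1, the myeloid master factor PU.1, had 855 TPM, Cebpa 200 TPM, and Mxd1, an antagonist of Myc that rises with terminal differentiation, 1085 TPM. The fewest counts in this list were on Hoxa9 with 0, Gata1 with 1 and Gfi1b with 17. Outside these lists, Ets2, a factor of the ETS family, had 40799 counts and 1124 TPM, Litaf, which is induced by lipopolysaccharide, 717 TPM, and Jdp2, a bZIP repressor of AP-1, 588 TPM. Klf2 and Klf6, zinc finger factors, had 686 and 492 TPM. The remaining members of the bZIP family among the leading 20 were Atf4, of the integrated stress response, at 409 TPM, Nfe2l2, the antioxidant regulator NRF2, at 404 TPM and Nfil3 at 357 TPM. For the NF-kB, STAT and IRF list, 26 of 27 were detected and 13 reached 100 TPM. The highest were regulators of NF-kB rather than its DNA-binding subunits. Nfkbia had 5712 TPM and stood 29.8 times above the subunit gene Rela (28.7 to 30.8), Nfkbiz had 1450 TPM and Nfkbid 774 TPM. Stat3, which transmits G-CSF and interleukin-6 signals, had 174 TPM, and Irf1, an interferon-responsive factor, 235 TPM.

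**Figure D4:**
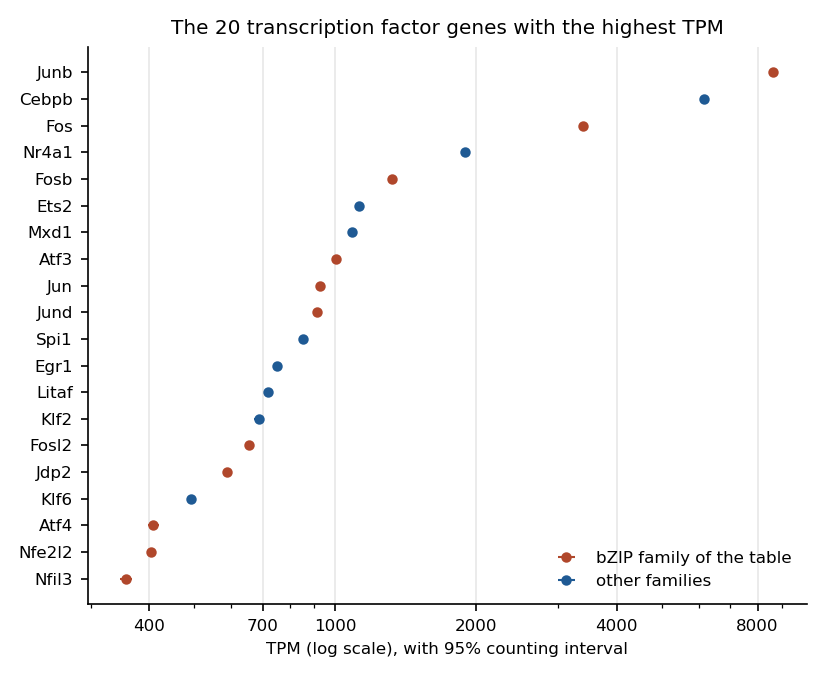
TPM on a logarithmic axis of the 20 transcription factor genes with the highest TPM in the control library, with 95% counting intervals and the genes of the deposited bZIP family, which leaves out the C/EBP genes, coloured apart from the other families. Junb is highest at 8637 TPM and Nfil3 is last at 357 TPM.

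By gene type, protein-coding genes took 98.1% of the counts (98.13 to 98.15). Processed pseudogenes took 0.396%, led by Rpl17-ps10, a copy of a ribosomal protein gene, with 3920 counts, a value that is uncertain because 73.0% of its windows are shared with other genes. Long intergenic non-coding RNAs took 0.390%, with 353 of 5559 of the latter detected. The intergenic RNAs were led by the nuclear RNAs Malat1, with 17905 counts, and Neat1, the scaffold of paraspeckles, with 3462 counts, and by Mirt1 with 3325. Processed transcripts took 0.212%, led by Mir22hg, a microRNA host gene, with 4712 counts, and antisense genes took 0.162%, with Tug1 at 2113 counts and Il1bos, which lies antisense to Il1b, at 712. The strand setting of the counting is not given in the sources used here, and Il1b and Il1bos share 25 exon bases on opposite strands. Genes of the type TEC, which await experimental evidence, took 0.155%, led by Gm37691 with 5196 counts. Polymorphic pseudogenes took 0.160%, but 23649 of their 27447 counts were on Clec7a, which is annotated so in this gene set and is the dectin-1 gene described among the receptors.

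Mitochondrially encoded genes took 0.455% of counts (0.452 to 0.459), and their values were uneven. The oxidase subunit gene mt-Co1 had 39193 counts, mt-Cytb 10857 and mt-Nd1 6529, while mt-Co2 and mt-Co3, subunits of the same enzyme as mt-Co1, had 86 and 46. For 5 of the 13 protein-coding mitochondrial genes, over 90% of the 100-base windows also occur in transcripts of other genes, and these had 8 to 86 counts. The other 8 had 1 to 39193 counts, the lowest being mt-Atp8 with 1 count and no shared window. Levels of genes that share most of their sequence with another gene are therefore uncertain in this table, and the windows were examined after the counts were seen.

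**Figure D5:**
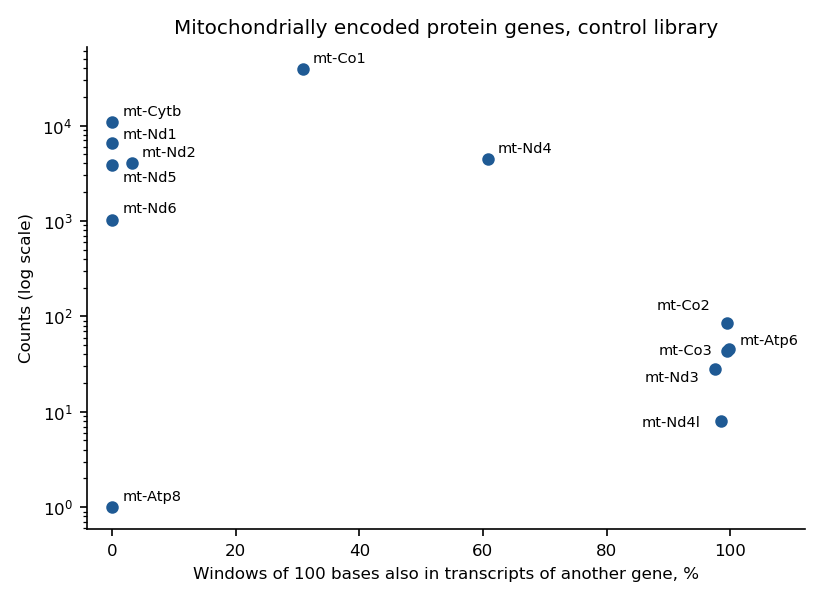
Counts on a logarithmic axis against the percentage of 100-base windows shared with transcripts of other genes, for the 13 protein-coding genes of the mitochondrial genome in the control library. The 5 genes with over 90% shared windows lie between 8 and 86 counts, and mt-Co1 is highest at 39193.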

How the data were processed

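The deposited table holds raw, unscaled read counts per gene together with coordinates, lengths, gene types and transcription factor families. According to the paper, total RNA came from a TRIzol extraction, and the NEBNext Ultra Directional kit was used for the library. The submitters' processing notes name HISAT2 2.0.5, StringTie 1.3.3b, featureCounts 1.5.0-p3, edgeR 3.18.1 and GRCm38.p6, without their roles. Only the control column was used, and 0 sample columns were left unmapped. From its counts, CPM with 95% Wilson intervals, TPM from the deposited lengths and exact intervals of ratios were computed with Python 3.11.15, pandas 2.3.3, numpy 2.4.6 and scipy 1.17.1, and plotted with matplotlib 3.10.9. The procedure was tested on simulated data. With 1 library, no test between groups was made.

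GENCODE M21 contains 54495 of the gene identifiers, 53585 of them at identical coordinates. The deposited length equals the merged exons for 97.9% of genes, so genes with long alternative exons have a TPM below that of their main transcript. Where a symbol stands on several rows (100 symbols), the row of highest count was taken. Shared windows are 100-base stretches of a gene's transcripts found in those of another gene.

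Genes were named by a rule: the 30 highest by counts and by TPM, the 6 highest and up to 3 lowest members of each list, the 20 highest transcription factors, up to 10 genes of each non-coding type with over 0.1% of counts, the 3 markers with most counts in each list, and Fn1, Lox, Postn, Mmp2, Mmp9 and Vegfa. Only a part of the genes so selected is printed, above all of the non-coding types and of the marker lists with low shares. Further members that complete a family or pair (such as Il6, Il10, Csf2, Prok2, Nt5e, Ncf4, Cybb, Cxcr1, Tlr2, Tlr4, Clec4n, Clec4a2, Clec5a, Plac8, Ly6c2, Rela, Stat3 and Cebpe) and all ratios of pairs were chosen after values were seen. The lists themselves were written with earlier results of these data known.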

Additional observations from a re-analysis of the deposited data

How the results depend on the processing

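No paired analysis was possible because there is 1 control library and no test, and for the same reason neither another normalization between libraries nor leaving out a replicate applies. The number of detected genes was 14829 with at least 10 counts, 18489 with at least 3 counts and 13344 with at least 1 CPM. Leaving mitochondrially encoded genes out of the total moved the share of the 50 most abundant genes from 19.4% to 19.5% and that of protein-coding genes from 98.1% to 98.2%. Without the 10 most abundant genes the protein-coding share was 98.0% and the neutrophil marker share 2.40%, and without S100a9 the latter was 2.78%. All 20 marker lists were lower without their most abundant gene, 15 of them by over 1.5 times. The 21 list medians stood at 0.828 to 1.37 times their value with the length of the longest annotated transcript, at 0.865 to 1.18 times with lengths shortened by 200 bases, and at 1.06 times with only protein-coding genes in the total. Summing the rows of a symbol changed none of them. Depth limits genes of few counts, and the spread between animals is unknown.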
